A study of Arabidopsis thaliana with 22 samples.

Results

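The 3-ketoacyl-CoA synthase (KCS) genes KCS1, KCS2, KCS4, KCS6 (also called CER6), KCS8, KCS9, KCS11, KCS12, KCS17 and KCS20 were followed in roots of Arabidopsis thaliana. These 10 genes of the family of 21 were chosen by name, with no measured value in the rule, as rows of a table of 33323 genes in 22 libraries. Earlier results of these data were known when these members, the other gene lists and the tests were chosen. All 10 passed the filter on low counts, which left 21683 genes. The libraries hold mRNA of upper primary roots, the 1.5 cm next to the hypocotyl without lateral roots, from untreated seedlings aged 14 days, and each pools about 40 seedlings as 1 biological replicate. The mutant line carries the allele myb67-1 of MYB67, a transcription factor gene, and its libraries are labelled myb67. It was compared with Col-0 (wild type, WT), its background accession, both grown on the same agarose medium. The labels do not say where in MYB67 the allele lies, and the line stands for a single allele. Experiment 1 held 6 libraries labelled myb67 and 6 WT libraries, and experiment 2 held 5 of each.

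KCS enzymes catalyse the first step of fatty acid elongation, in which an acyl-CoA is condensed with malonyl-CoA, and the synthase sets which chain lengths are made. A reductase, a dehydratase and an enoyl reductase then complete the cycle at the endoplasmic reticulum. In roots, very-long-chain products become monomers of suberin, the lipid polyester of endodermis and cork walls, as well as sphingolipids, phospholipids and waxes.

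KCS2 and KCS20, the closest pair among the 10, are known to act together in root suberin. Their coding sequences were identical at 1310 of 1554 aligned bases (84.3%). The longest run of identical bases was 53, while the longest run that any of the other 8 genes shared with any KCS gene was 33. The stretch around this run is shown because reads that fall wholly inside the run cannot be assigned to either gene. It is read in the coding direction from the RefSeq TAIR10.1 assembly, at chr1:1119994-1120083 (minus strand) for KCS2 and chr5:17588277-17588366 (plus strand) for KCS20, in the coding sequence of both genes. Capitals mark the only bases of the stretch at which the pair differs, and the run lies between them.
KCS2: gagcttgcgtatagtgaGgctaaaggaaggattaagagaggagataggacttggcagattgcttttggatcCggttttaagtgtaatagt
KCS20: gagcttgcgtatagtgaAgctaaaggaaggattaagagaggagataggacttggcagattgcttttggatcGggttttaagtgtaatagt
Both genes have 2 exons in that annotation, with transcripts of 2044 bases for KCS2 and 2217 bases for KCS20. The counting of reads that match both genes is not described in the sources used.

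Levels are CPM, a gene's counts relative to its library's total, scaled by TMM, a correction for library make-up, and errors are SDs between libraries. Total counts ran from 23190477 to 32091009 per library in experiment 2 and from 3705515 to 17727642 in experiment 1. The shallowest library was WT replicate 1 of experiment 1. Of its counts 27.7% fell on AT3G41768, a ribosomal RNA gene, against 0.505% or less in every other library of that experiment. MYB67 itself (AT3G12720) was higher in libraries labelled myb67, with 11.5 ± 1.66 CPM against 6.58 ± 0.437 CPM in WT in experiment 1 (SD, n = 6 each) and 17.99 ± 3.68 CPM against 10.6 ± 2.79 CPM in experiment 2 (SD, n = 5 each). Counts summed over all of MYB67 cannot check a lesion that the labels do not place, so directions are given for libraries by their label. Markers of endodermis (9 genes), periderm (4), root hair (4), xylem (6), phloem (4) and cambium (3) were all above 0 in every library. In bulk roots, fewer cells of a type and less RNA per cell cannot be told apart.

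KCS2 (AT1G04220), a root suberin elongase also known as DAISY, was higher in libraries labelled myb67 in both experiments. In experiment 1 its level was lowest at 49.2, had a median of 83.2 and was highest at 102.6 CPM in the 6 libraries labelled myb67, against a lowest of 34.4, a median of 40.8 and a highest of 83.8 CPM in the 6 WT libraries. The groups overlapped there, because WT replicate 1 stood at 83.8 CPM, above 3 libraries labelled myb67, and replicate 6 of those labelled myb67, at 49.2 CPM, lay below WT replicates 1 and 6. In experiment 2 it was 66.5, 67.6, 56.5, 59.3 and 63.6 CPM in libraries labelled myb67 and 42.9, 35.1, 37.6, 35.0 and 31.8 CPM in WT libraries. All 5 libraries labelled myb67 lay above all 5 WT libraries in experiment 2, as they did for 0.922% of all genes tested. Group means were 80.1 ± 19.1 CPM in libraries labelled myb67 against 48.7 ± 19.0 CPM in WT in experiment 1 (SD, n = 6 each), and 62.7 ± 4.73 CPM in libraries labelled myb67 against 36.5 ± 4.13 CPM in WT in experiment 2 (SD, n = 5 each).

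Over both experiments KCS2 was 1.71-fold higher in libraries labelled myb67, or 0.78 on the log2 scale with an approximate standard error (SE) of 0.13 (edgeR quasi-likelihood adjusted p = 4.93e-04, experiment as a term). Each SE was obtained by dividing the absolute log2 fold change by the square root of its F statistic. KCS2 was the only member called at an adjusted p under 0.05, 1 of 10, where 0.816% of all genes tested were called higher and 1.5% in either direction. Since the members were chosen with earlier results known, their share of calls is not independent of these data. The median log2 fold change was 0.01 over the 10 members and 0.00 over all genes tested. The call held whichever of the 22 libraries was left out, at 0.74 to 0.86 on the log2 scale, and the highest edgeR adjusted p of those fits was 0.00142. In the authors' deposited table, the log2 fold change of KCS2 was 0.76 (SE 0.13), its adjusted p was 1.21e-06, and the smallest adjusted p of the other 9 genes in that table was 0.349.

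The log2 fold change of KCS2 was 0.78 in experiment 1 (SE 0.18; edgeR adjusted p = 0.0404) and 0.78 in experiment 2 (SE 0.18; edgeR adjusted p = 0.0304). KCS2 was the 1 member called in each, where 0.623% of all genes were called in experiment 1 and 1.33% in experiment 2. The difference between the experiments, experiment 2 minus experiment 1, was 0.00 (95% interval -0.49 to 0.50; edgeR adjusted p = 1.00). None of the 10 members passed the test of that difference in edgeR, limma-voom or DESeq2, and 0.0692% of all genes passed it in edgeR. In edgeR 1 member had an unadjusted p under 0.05 for the difference, as did 8.81% of all genes tested. The call of KCS2 in experiment 1 was lost on leaving out any of 13 single libraries, where it was 0.69 to 0.82 on the log2 scale (edgeR adjusted p = 0.0501 to 0.131). Those libraries were replicates 1 to 5 labelled myb67 and WT replicates 2 to 5 of experiment 1, with replicates 3 and 4 labelled myb67 and WT replicates 2 and 3 of experiment 2. In experiment 2 it was lost in 8 such fits, at 0.74 to 0.80 (edgeR adjusted p = 0.0502 to 0.107), namely without replicate 1, 2, 4 or 5 labelled myb67 or WT replicate 2, 3, 4 or 5 of experiment 2. The call in experiment 1 was also lost with replicate numbers as a block in both experiments (edgeR adjusted p = 0.0755), with experiment 1 fitted alone (0.0906) and with a robust prior (0.0683). It was lost too without WT replicates 3 and 6 of experiment 1, where it was 0.75 on the log2 scale (edgeR adjusted p = 0.153). For experiment 2, the call of KCS2 held under all 14 alternatives other than leaving out 1 library, at 0.78 on the log2 scale.

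**Figure D1:**
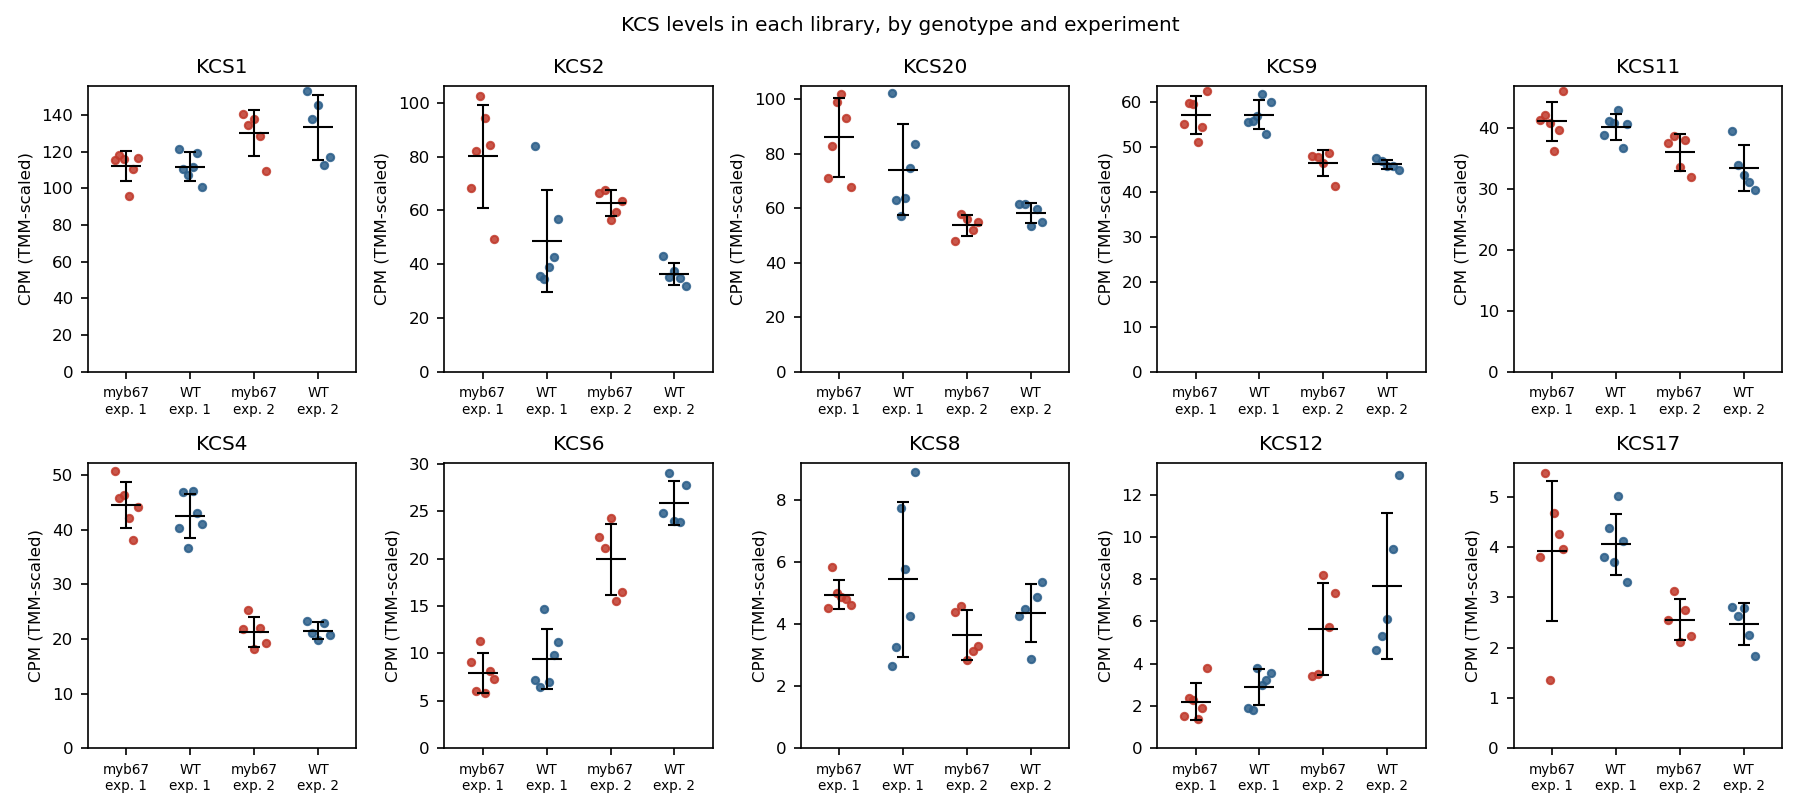
Levels of the 10 KCS genes as TMM-scaled CPM in each library (points), with group means and SDs (black bars), for libraries labelled myb67 (red) and WT (blue) in experiment 1 (n = 6 each) and experiment 2 (n = 5 each); each panel has its own axis from 0. KCS2 stood at 56.5 to 67.6 CPM in libraries labelled myb67 of experiment 2, against 31.8 to 42.9 CPM in WT, while the other genes overlapped between genotypes in both experiments.

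KCS20 (AT5G43760), the partner of KCS2 in suberin synthesis, did not pass the test. In experiment 1 it had a lowest of 67.8, a median of 88.0 and a highest of 102 CPM in libraries labelled myb67, and a lowest of 57.1, a median of 69.2 and a highest of 102 CPM in WT libraries. In experiment 2 its level was 47.9, 57.7, 56.1, 51.8 and 54.8 CPM in libraries labelled myb67 and 61.5, 61.4, 53.4, 59.8 and 55.0 CPM in WT libraries. The genotypes overlapped in both experiments. The log2 fold change was 0.07 over both (SE 0.09; edgeR adjusted p = 1.00), 0.23 in experiment 1 (SE 0.12; edgeR adjusted p = 0.603) and -0.12 in experiment 2 (SE 0.12; edgeR adjusted p = 0.989). KCS20 was the member with an unadjusted p under 0.05 for the difference between experiments, -0.35 (95% interval -0.68 to -0.02; edgeR adjusted p = 0.567).

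The ratio of KCS2 to KCS20 counts within a library does not depend on library scaling, and the pair was chosen with the change of KCS2 known. In experiment 1 it was 0.962, 0.990, 1.03, 0.926, 0.906 and 0.725 in libraries labelled myb67, against 0.821, 0.561, 0.603, 0.610, 0.571 and 0.681 in WT libraries. WT replicate 1, at 0.821, lay above replicate 6 labelled myb67, at 0.725, and the other libraries of the genotypes did not overlap. In experiment 2 it was 1.39, 1.17, 1.01, 1.14 and 1.16 in libraries labelled myb67, against 0.698, 0.573, 0.704, 0.586 and 0.579 in WT libraries. All 5 libraries labelled myb67 of experiment 2 held more KCS2 than KCS20 counts, and all 11 WT libraries held fewer. The mean difference in the log2 ratio over both experiments was 0.72, a 1.64-fold higher ratio in libraries labelled myb67 (exact two-sided permutation within experiments, p = 1.72e-05, smallest possible 8.59e-06). It was 0.53 in experiment 1 (exact permutation p = 0.00433, n = 6 each) and 0.90 in experiment 2 (exact permutation p = 0.00794, the smallest possible with n = 5 each). Whether these differ from each other was not tested. A shift of shared reads between the genes would move the ratio, and its part in the result was not tested.

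**Figure D2:**
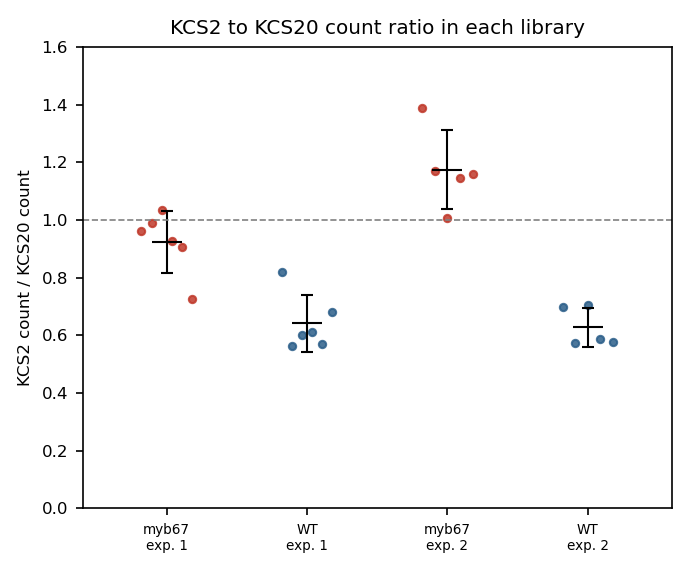
KCS2 count divided by KCS20 count in each library (points), with group means and SDs (black bars), for libraries labelled myb67 (red) and WT (blue) in experiment 1 (n = 6 each) and experiment 2 (n = 5 each); the dashed line marks equal counts. The ratio ran from 1.01 to 1.39 in libraries labelled myb67 of experiment 2 and from 0.573 to 0.704 in WT.

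Within a genotype of experiment 1, KCS2 and KCS20 were highest in the libraries of fewest counts. Replicates 3 and 4 labelled myb67, with 4488078.5 and 5212571.5 counts, had 103 and 94.4 CPM of KCS2 and 98.9 and 102 CPM of KCS20. WT replicates 1 and 6, with 3705515 and 7885995 counts, had 83.8 and 56.9 CPM of KCS2 and 102 and 83.4 CPM of KCS20. WT replicate 1 also had the highest sum of endodermis markers, 680 CPM, against 333 to 530 CPM in the other libraries of experiment 1. It was highest in root hair markers too, at 256 CPM, against 105 to 230 CPM in those libraries. WT replicate 6 had 400 CPM of endodermis markers, below the 420 CPM of WT replicate 2. The part of depth and of these markers in the levels was not tested. Without the 3 libraries of fewest counts, all of experiment 1, the log2 fold change of KCS2 over both experiments was 0.78 (edgeR adjusted p = 3.60e-05). That value also draws on the libraries of experiment 2. The protein-coding gene AT1G04210 overlaps KCS2 by 41 bases on the other strand in the annotation. It had 94.8 CPM in libraries labelled myb67 and 93.2 CPM in WT of experiment 1, 93.8 CPM in libraries labelled myb67 and 93.9 CPM in WT of experiment 2, and a genotype effect of 0.01 on the log2 scale (SE 0.04; edgeR adjusted p = 1.00). A long non-coding RNA, AT1G04247, is annotated over 2302 bases of KCS2 on the other strand. It had no row among the counts, so its level cannot be given. Its part in the counts of KCS2 was not tested.

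KCS9 (AT2G16280), known to extend chains in root suberin and in membrane lipids, was nearly level between the genotypes. It was 57.03 ± 4.22 CPM in libraries labelled myb67 and 57.1 ± 3.25 CPM in WT in experiment 1 (SD, n = 6 each), and 46.4 ± 2.96 CPM and 46.1 ± 0.968 CPM in experiment 2 (SD, n = 5 each). Over both experiments its log2 fold change was 0.00 (95% interval -0.07 to 0.08; edgeR adjusted p = 1.00), the narrowest interval of the 10 genes. KCS1 (AT1G01120), an elongase of broad expression known from wax, had 112 ± 8.28 CPM in libraries labelled myb67 and 112 ± 7.81 CPM in WT in experiment 1, and 130 ± 12.4 CPM and 133 ± 17.6 CPM in experiment 2. Its log2 fold change was -0.01 (95% interval -0.12 to 0.10; edgeR adjusted p = 1.00). KCS4 (AT1G19440) had 0.03 (95% interval -0.09 to 0.14; edgeR adjusted p = 1.00) and KCS11 (AT2G26640) 0.07 (95% interval -0.03 to 0.17; edgeR adjusted p = 0.954). For these 4 genes the intervals leave out a change of the size seen for KCS2. KCS11 overlaps AT2G26650 by 9 bases in the annotation.

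KCS6 (AT1G68530), the main elongase of shoot cuticular wax, had a negative log2 fold change in both experiments and did not pass the test. In experiment 2 it was 22.3, 21.1, 24.2, 15.5 and 16.5 CPM in libraries labelled myb67 and 24.8, 29.0, 24.0, 23.9 and 27.8 CPM in WT libraries. Replicate 3 labelled myb67, at 24.2 CPM, lay above WT replicates 3 and 4, and the other 4 libraries labelled myb67 lay below every WT library. In experiment 1 it had a lowest of 5.85, a median of 7.73 and a highest of 11.3 CPM in libraries labelled myb67, against a lowest of 6.46, a median of 8.52 and a highest of 14.7 CPM in WT libraries. The log2 fold change was -0.34 over both experiments (SE 0.13; edgeR adjusted p = 0.353), -0.29 in experiment 1 (SE 0.20; edgeR adjusted p = 0.758) and -0.38 in experiment 2 (SE 0.17; edgeR adjusted p = 0.524).

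Replicate numbers were taken to pair the libraries of experiment 2, less clearly for replicate 5. Same-numbered libraries of experiment 1 did not deviate together (correlation across genes -0.158 to 0.0430), so a block there follows the numbers alone. The call of KCS6 depended on how the pairs were fitted. With a block in both experiments KCS6 passed as lower over both (-0.34; edgeR adjusted p = 0.0477) and in experiment 2 (-0.39; edgeR adjusted p = 0.0384), where 1.78% and 4.52% of all genes were called. With experiment 2 fitted alone with its pairs, a fit added after the data were seen, it passed too (-0.39; edgeR adjusted p = 0.0346; 7.39% of all genes called). With the block in experiment 2 only and both experiments in 1 fit, it did not (edgeR adjusted p = 0.216 over both and 0.226 in experiment 2; 2.21% and 4.84% of all genes called). In experiment 1, WT replicates 3 and 6 had KCS6 at 14.7 and 11.2 CPM. In the same libraries the summed level of 10 green-tissue genes was 1270 and 1764 CPM, against 279 to 438 CPM in the other 10 libraries. Without these libraries the log2 fold change of KCS6 in experiment 1 was 0.04, and the part of green tissue in it was not tested.

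Of the low members, KCS8 (AT2G15090) was at 4.52 to 5.83 CPM in libraries labelled myb67 of experiment 1, against 7.75 and 8.89 CPM in the same WT replicates 3 and 6 and 2.67 to 5.78 CPM in the other 4 WT libraries. Its log2 fold change over both experiments was -0.22 (95% interval -0.53 to 0.08; edgeR adjusted p = 0.939), and -0.06 without those WT libraries. KCS12 (AT2G28630) averaged 2.21 ± 0.873 CPM in libraries labelled myb67 and 2.89 ± 0.849 CPM in WT in experiment 1 (SD, n = 6 each), and 5.64 ± 2.18 CPM and 7.69 ± 3.46 CPM in experiment 2 (SD, n = 5 each). At -0.42 (95% interval -0.84 to 0.00) KCS12 had the lowest log2 fold change of the 10 (edgeR adjusted p = 0.743). Without WT replicate 5 of experiment 2 it was -0.26. Counts of KCS12 were as low as 5 per library in experiment 1, and its interval was the widest of the 10. KCS17 (AT4G34510) had 0.02 (95% interval -0.24 to 0.27; edgeR adjusted p = 1.00), with 1.36 to 5.48 CPM in libraries labelled myb67 and 3.30 to 5.02 CPM in WT of experiment 1.

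**Figure D3:**
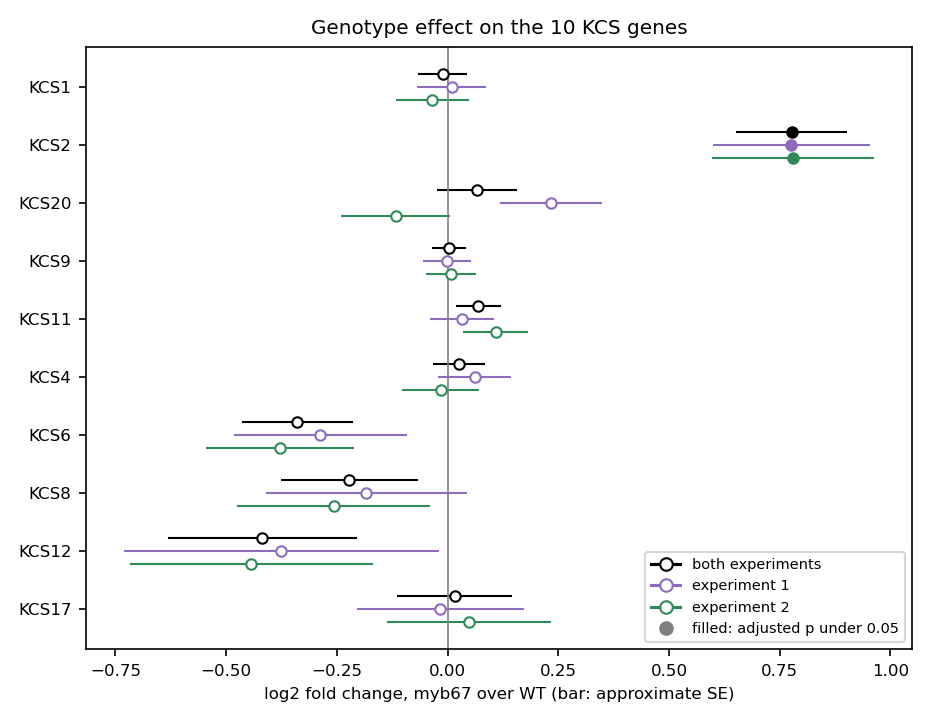
Log2 fold change of libraries labelled myb67 over WT for the 10 KCS genes, over both experiments (black), in experiment 1 (purple) and in experiment 2 (green), with approximate SEs; filled points have an edgeR adjusted p under 0.05. The 3 filled points are those of KCS2, at 0.78 each, and the other genes lie between -0.44 and 0.23.

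Levels per kb of transcript (CPM per kb, with lengths from the annotation) allow the genes to be ordered within a group. KCS1 was the highest in each of the 4 groups, at 54.6 ± 4.03 CPM per kb in libraries labelled myb67 and 54.5 ± 3.81 in WT of experiment 1, and 63.4 ± 6.02 and 64.9 ± 8.57 in experiment 2. In libraries labelled myb67, KCS2 came second, at 39.2 ± 9.35 CPM per kb in experiment 1 and 30.7 ± 2.31 in experiment 2. KCS20 followed there, at 38.7 ± 6.48 and 24.2 ± 1.76 CPM per kb. In WT, KCS20 came second, at 33.4 ± 7.51 CPM per kb in experiment 1 and 26.3 ± 1.70 in experiment 2, KCS9 came next, at 26.5 ± 1.51 and 21.4 ± 0.450, and KCS2 after it, at 23.8 ± 9.31 and 17.9 ± 2.02. In libraries labelled myb67, KCS2 overlapped both KCS1 and KCS20 in experiment 1 and overlapped neither in experiment 2. In WT, KCS2 overlapped KCS9 and KCS11 in both experiments.

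KCS11 and KCS4 followed in experiment 1, at 20.8 and 20.4 CPM per kb in libraries labelled myb67 and 20.3 and 19.4 in WT, and they overlapped each other. The remaining 4 genes were at 4.17 CPM per kb or less on average in experiment 1. In experiment 2, KCS6 joined KCS4 in the middle of the order, at 8.85 against 9.75 CPM per kb in libraries labelled myb67 and 11.5 against 9.86 in WT, and the pair overlapped in each genotype. KCS12, KCS8 and KCS17 were lowest in experiment 2, at 1.19 to 3.56 CPM per kb.

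Of the summed CPM per kb of the 10 genes, KCS2 held 18.6 ± 3.62% in libraries labelled myb67 and 12.4 ± 3.58% in WT in experiment 1 (SD, n = 6 each), and 16.8 ± 1.35% and 10.15 ± 0.617% in experiment 2 (SD, n = 5 each). In experiment 1 the share ran from 12.5% to 22.2% in libraries labelled myb67 and from 9.75% to 18.8% in WT, and the genotypes overlapped. In experiment 2 it ran from 15.0% to 18.6% in libraries labelled myb67 and from 9.45% to 10.9% in WT, with no overlap. The sum itself was 209 ± 12.7 CPM per kb in libraries labelled myb67 and 188 ± 16.3 in WT in experiment 1, and 182 ± 10.002 and 176 ± 11.5 in experiment 2, and it overlapped between genotypes in both.

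**Figure D4:**
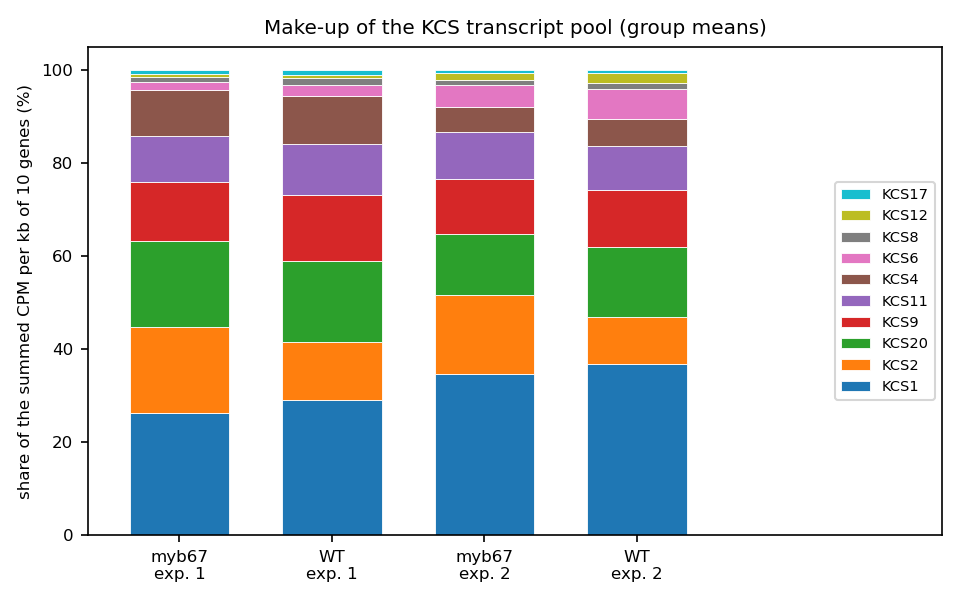
Mean share of each gene, in percent, of the summed CPM per kb of the 10 KCS genes, for libraries labelled myb67 and WT in experiment 1 (n = 6 each) and experiment 2 (n = 5 each). KCS2 (orange) held 18.6% and 16.8% in libraries labelled myb67, against 12.4% and 10.15% in WT, and KCS1 (blue) was the largest share in each group.

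All 10 members differed between the experiments, experiment 2 against experiment 1, where 80.7% of all genes tested did. Higher in experiment 2 were 3 members (42.8% of all genes): KCS6 with 1.39 on the log2 scale (SE 0.13; edgeR adjusted p = 3.94e-10), KCS12 with 1.34 (SE 0.22; edgeR adjusted p = 5.01e-06) and KCS1 with 0.23 (SE 0.06; edgeR adjusted p = 4.96e-04). Lower were 7 (37.9% of all genes), of which KCS4 changed most, with -1.02 (SE 0.06; edgeR adjusted p = 1.82e-13). KCS4 stood at 18.2 to 25.2 CPM in the 10 libraries of experiment 2 and at 36.6 to 50.6 CPM in the 12 of experiment 1. KCS17 had -0.70, KCS20 -0.50, KCS8 -0.40, KCS2 -0.34, KCS9 -0.30 and KCS11 -0.23. KCS6 thus moved in the opposite direction to KCS2 and KCS20, as did KCS12 and KCS1. KCS4, KCS17, KCS8, KCS9 and KCS11 moved in the same direction as KCS2 and KCS20.

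The calls of KCS2 and KCS8 between experiments rested on few libraries. Without the 3 libraries of fewest counts, KCS2 had -0.20 (edgeR adjusted p = 0.0599). KCS8 had -0.22 (edgeR adjusted p = 0.157) without WT replicates 3 and 6 of experiment 1, and -0.34 (edgeR adjusted p = 0.0526) without WT replicate 3 alone. Summed periderm markers were at 1037 to 1455 CPM in experiment 2 and 272 to 386 CPM in experiment 1. Endodermis markers were at 57.8 to 115 CPM in experiment 2 and 333 to 680 CPM in experiment 1, and root hair markers at 3.77 to 22.7 CPM in experiment 2 and 105 to 256 CPM in experiment 1. Green-tissue genes summed to 2018 to 3605 CPM in experiment 2 and to 279 to 1764 CPM in experiment 1. Experiment, tissue make-up, depth and counting cannot be told apart in these levels.

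Among the 11 other genes of the family, 7 were tested and 0 were called over both experiments in edgeR, with a median log2 fold change of -0.11; 2 had an unadjusted p under 0.05, as did 7.31% of all genes tested, and 0 were called in limma-voom or DESeq2. KCS10 (FIDDLEHEAD, AT2G26250), known from keeping the surfaces of young organs apart, was the highest of them at 59.8 ± 8.87 CPM in libraries labelled myb67 and 64.9 ± 6.90 CPM in WT in experiment 1 (SD, n = 6 each), and had -0.09 (SE 0.06; edgeR adjusted p = 0.946). KCS16 (AT4G34250), known from leaf wax, had -0.35 (SE 0.14; edgeR adjusted p = 0.400). KCS19 (AT5G04530) had -0.81 (SE 0.33; edgeR adjusted p = 0.491), with 0.867 to 1.63 CPM in libraries labelled myb67 of experiment 2, all below the 2.03 to 2.41 CPM in WT; 0.913% of all genes showed such a gap downward. KCS3 had -0.11 and KCS5 -0.06. KCS7, KCS13, KCS14 and the seed oil elongase KCS18 (FAE1) were too low to test, with at most 20 counts in any library.

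The partners of KCS enzymes in elongation did not pass over both experiments, 0 of 13 tested of 15, in edgeR, limma-voom or DESeq2, with 7 at an unadjusted edgeR p under 0.05, against 7.31% of all genes tested. Their median log2 fold change was 0.09, and 9 of the 13 were above 0. The scaffold-like immunophilin gene PAS1 had 0.11 (SE 0.04; edgeR adjusted p = 0.258), the ketoacyl reductase gene KCR1 0.13 (SE 0.05; edgeR adjusted p = 0.366) and the dehydratase gene PAS2 0.11 (SE 0.05; edgeR adjusted p = 0.556). The long-chain acyl-CoA synthetase genes LACS3 and LACS1 had 0.23 (SE 0.09; edgeR adjusted p = 0.466) and -0.31 (SE 0.14; edgeR adjusted p = 0.577). The cuticular wax genes CER1, CER3 and CER4, the 3 of 5 that were tested, had -0.24, -0.02 and -0.04, and none was called.

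Genes listed as users of acyl chains in suberin, waxes and sphingolipids moved both ways over both experiments, with 3 higher, 3 lower and 9 not passing of 15 tested, where 0.816% of all genes were called higher and 0.687% lower. Their median log2 fold change was 0.12. This list too was chosen with earlier results of these data known, so its share of calls is not independent of them. Lower were the acyl reductase gene FAR1 (-1.97), the fatty alcohol caffeoyl transferase gene FACT (-1.57) and, outside the rule for naming, FAR4 (-0.33). Higher were the suberin transporter gene ABCG2 (0.58), the acyltransferase gene GPAT5 (0.35) and CYP86A1 (0.36), a root fatty acid hydroxylase gene known for chains shorter than KCS products. Of 11 regulators of KCS or suberin genes, all tested, 2 were higher, 0 lower and 9 did not pass, with a median of 0.07. MYB9 had 0.33 (SE 0.08; edgeR adjusted p = 0.0260) and MYB93 0.31 (SE 0.08; edgeR adjusted p = 0.0322), while MYB107 had 0.28 (edgeR adjusted p = 0.136), MYB94 -0.27 and MYB39 0.36. Their count of calls ran from 0 to 3 over the fits that left out 1 library, with 0 without replicate 5 labelled myb67 of experiment 1 or replicate 2 or 4 labelled myb67 or WT replicate 4 or 5 of experiment 2.

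**Figure D5:**
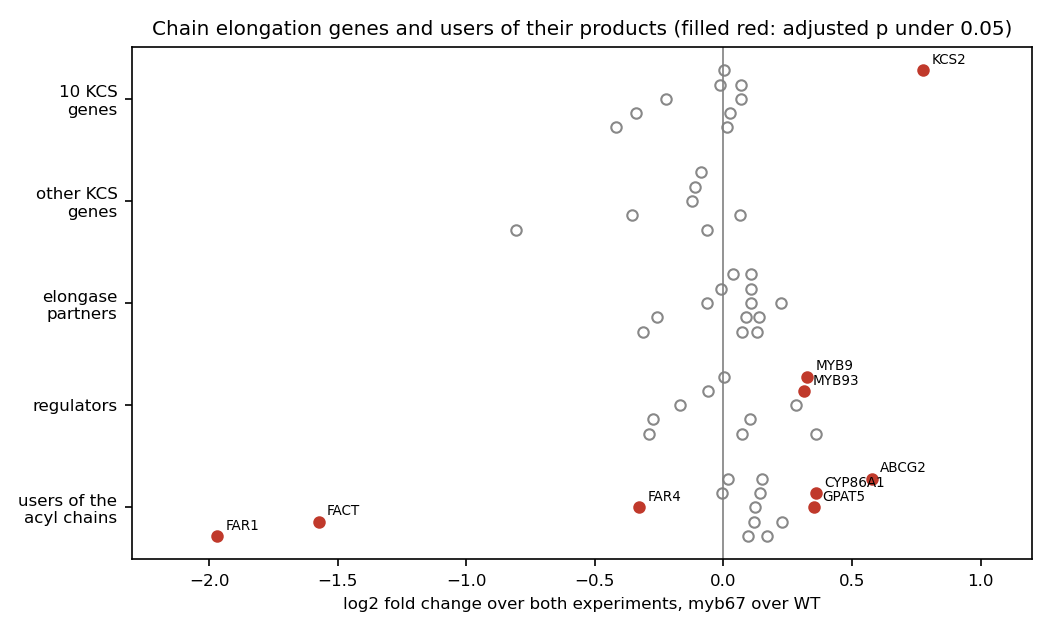
Log2 fold change over both experiments, libraries labelled myb67 over WT, of the 10 KCS genes, 7 other KCS genes, 13 elongase partners, 11 regulators and 15 users of the acyl chains (points, spread vertically for legibility); red points have an edgeR adjusted p under 0.05 and are named. The users run from -1.97 (FAR1) to 0.58 (ABCG2), while none of the partners passed.

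The gene whose pattern was most like that of KCS2 was the acyltransferase gene GPAT6 (AT2G38110), known from cutin. The root mean square difference of log2 CPM, centred within each experiment, over 22 libraries was 0.20 between GPAT6 and KCS2, the smallest among 21682 genes. GPAT6 had 49.4 ± 3.29 CPM in libraries labelled myb67 and 29.4 ± 12.6 CPM in WT in experiment 1 (SD, n = 6 each), and 71.0 ± 3.96 CPM and 44.1 ± 7.74 CPM in experiment 2 (SD, n = 5 each). Its log2 fold change was 0.76 (edgeR adjusted p = 1.36e-04). The distance includes the difference between genotypes, so a fold change near that of KCS2 follows in part from how GPAT6 was picked. The next gene by this distance was AT1G63530, an uncharacterised gene (0.28, log2 fold change 0.49, edgeR adjusted p = 0.0400). After it came AT1G72790, of the hydroxyproline-rich glycoprotein family (0.28, log2 fold change 0.37, edgeR adjusted p = 0.161). KCS20, the nearest member, ranked 263 at 0.40, followed by KCS11 at 0.49, and KCS12 was the most distant at 0.89.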

How the data were processed

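mRNA of 22 libraries was measured in a table of 33323 genes. The authors deposited expected counts for experiment 1, multiples of 0.5 of which 28.2% to 34.6% a library were not whole, and whole raw counts for experiment 2. From the authors' deposited comparison, each gene's log2 fold change, SE and adjusted p-value were read. The submitters' processing notes name the build TAIR10 and the tools DESeq2 1.40.1, HOMER, STAR 2.7.10a, Trimmomatic 0.39 and FastQC, without saying what each did. The handling of strand and of multi-mapping reads is not given there.

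Expected counts were rounded to whole numbers. Genes were kept by filterByExpr on the 4 groups, libraries were scaled by TMM, and the quasi-likelihood F test of edgeR 4.0.16 was run across all kept genes. It had the experiment as a term for the effect over both experiments, and group means for the effect in each and for their difference. Adjusted p-values are Benjamini-Hochberg over all genes tested, with a call under 0.05. The KCS2 to KCS20 ratio was tested by exact two-sided permutation of genotype labels within experiments (232848 relabelings). The edgeR fits were tested on simulated counts. Depth per library is given with the results. The 95% intervals, from the SE by a normal approximation, are for the log2 fold change, with its error estimated from the spread between libraries. Same-numbered libraries deviated together in experiment 2 (correlation across genes 0.285 to 0.671, all 5 pairs over 0.1) and not in experiment 1 (-0.158 to 0.0430, 0 of 6 pairs). In experiment 2, replicate 5 labelled myb67 correlated more with a WT library of another number than with WT replicate 5 (0.285). The pairing in experiment 2 is thus read from the data, less clearly for replicate 5, since the labels give only a shared number. Fits with a replicate block are given where they change a call.

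Sequences, lengths and overlaps come from the RefSeq TAIR10.1 annotation, released later than TAIR10, and each gene's longest annotated transcript set its length. No protein table was used. The members, lists and tests were chosen with earlier results of these data known. All 10 members are named. Of the other lists, up to 5 genes each are named, called ones first, by smallest p, and the 3 genes most like each called member by root mean square difference of centred log2 CPM (prior count 2). Alternatives were other normalizations, filters, tools, blocks and left-out libraries. Versions were R 4.3.3, limma 3.58.1, DESeq2 1.42.0, Python 3.11.15, matplotlib 3.10.9 and Biopython 1.88.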

Additional observations from a re-analysis of the deposited data

Results flagged for a closer look

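Of the 44 groups of libraries examined, 11 quantities in 4 groups each, 2 held a library far from the others, where chance gives about 1 in 20. KCS1 in replicate 4 labelled myb67 of experiment 1 was at 95.9 CPM, lower than in the other 5 libraries of its group, and its gap to the nearest took 0.673 of the range of the group. KCS8 in replicate 2 labelled myb67 of experiment 1 was at 5.83 CPM, higher than in the other 5, with a gap of 0.641 of the range. Over both experiments, neither gene was called between the genotypes in edgeR with or without that library.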

How the results depend on the processing

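Over both experiments KCS2 kept its direction and its call under all 13 alternatives and all 22 fits without 1 library, at 0.74 to 0.86 on the log2 scale and with no adjusted p above 0.0289. The number of members called over both experiments was 2 with the replicate block in both experiments, where KCS6 joined KCS2, and 1 otherwise. In experiment 1 it was 0 with a robust prior, with the block in both experiments, without the 2 WT libraries high in green-tissue genes and with experiment 1 alone, and 0 to 1 without 1 library. The edgeR adjusted p of KCS2 there was 0.0683, 0.0755, 0.153 and 0.0906 in these fits. In experiment 2 it was 2 with the block in both experiments and with experiment 2 alone with the block, and 0 to 1 without 1 library. Between the experiments it was 9 to 10 in all fits, and 0 for the difference of the genotype effect. The log2 ratio of KCS2 to KCS20 was 0.53 to 0.90 under its alternatives and 0.69 to 0.75 without 1 library, with an exact permutation p of 0.000977, the smallest possible, when labels were exchanged within replicate pairs, although the pairs of experiment 1 did not deviate together. The block changed no other call of a member.

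Signs also changed among members' values that did not pass, and the cause was not tested. Over both experiments KCS1 had 0.0093 without the 3 libraries of fewest counts, KCS4 -0.012 and KCS17 -0.027 without the 2 green WT libraries, KCS9 -0.0023 with upper quartile scaling and KCS17 -0.0060 with no experiment term. KCS6 in experiment 1 had 0.039 without the green WT libraries, against -0.29 with them. The difference of KCS2 between experiments was -0.072 in limma-voom, -0.0064 with the block in both experiments and -0.013 with the block in experiment 2 only. Without 1 library, KCS1 ran from -0.034 to 0.014, KCS4 from -0.0031 to 0.049, KCS9 from -0.014 to 0.019, KCS17 from -0.037 to 0.075, the difference of KCS2 from -0.16 to 0.087 and that of KCS6 from -0.30 to 0.020.

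Counts over all genes moved more. Without the experiment term 83 genes passed over both experiments, against 326. In experiment 1, 272 passed in DESeq2, 231 and 280 with a block in both experiments or in experiment 2 only, and 81 without the green WT libraries, against 135. In experiment 2, 980 and 1050 passed with those blocks, 136 with experiment 2 alone, 1627 with experiment 2 alone and the block, and 509 without WT replicate 1, against 288. For the difference, 516 and 573 passed with the blocks, 43 in DESeq2, 6 in limma-voom, 6 without the 3 libraries of fewest counts, 8 without the green WT libraries and 23 without WT replicate 1 of experiment 2, against 15. Among 15 users of the acyl chains, 3 passed without the experiment term, against 6. Counts of KCS12 and KCS17 in experiment 1 were as low as 5 and 6.5, and the part of depth in their spread was not tested.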
